A study of Drosophila melanogaster with 6 samples.

Results

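The small heat shock genes of Drosophila melanogaster, together with the stress-inducible chaperone gene Hsp68 and the heat shock factor gene Hsf, were examined in RNA-seq of whole lymph glands. The 10 genes were taken by name (Hsp22, Hsp23, Hsp26, Hsp27, Hsp67Ba, Hsp67Bb, Hsp67Bc, l(2)efl, Hsp68 and Hsf) from 17807 genes in the deposited tables, and all 10 were found. The data are 6 libraries of polyadenylated RNA from larvae in the third instar, kept at 25 °C on a semi-defined medium. All larvae were wild-type and had the background BL-30140 crossed to w1118. One experimenter made 3 libraries (set A) and another made the other 3 (set B), and the labels give no other difference between them. The labels record no heat treatment and no mutant group. The number of glands pooled in a library is not given in the sources used here.

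Small heat shock proteins share an alpha-crystallin domain, form large oligomers and hold unfolding proteins in a soluble state without using ATP. Hsp70-family proteins, which include the product of Hsp68, then refold such clients with ATP and J-domain partners. Heat shock factor, the product of Hsf, is the transcription factor that binds heat shock elements and switches on heat shock genes under stress. In flies several small heat shock genes are also expressed during normal development, and the steroid hormone ecdysone induces them near the end of larval life.

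Depth ranged from 18689689 to 26003822 expected counts per library, and every pair of libraries differed by more than sampling noise. The lymph gland makes the blood cells of the larva. Its markers were present in every library, with a summed TPM (relative transcript abundance, corrected for transcript length) of 4540 to 5918 for 7 hemocyte genes, 9603 to 17240 for 3 crystal cell genes and 3952 to 5479 for 3 progenitor genes. Markers of neighbouring tissues were present as well and differed between libraries. Salivary gland genes summed to 4773 TPM in set B replicate 2 and to 13.9 to 75.6 TPM elsewhere, and fat body genes to 491 TPM in set A replicate 3 and to 5.47 to 18.2 TPM elsewhere. Set B replicate 2, the library high in salivary gland genes, was among the 2 highest libraries for each gene examined except Hsp68 and Hsf. The part of salivary gland cells in those levels was not tested. Ring gland, muscle and neural markers are given beside the genes they moved with. In such bulk samples, fewer cells of a type and less RNA per cell cannot be told apart.

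Of the 10 genes, 7 lie within 14184 bases of chromosome 3L, the 67B heat shock locus, at 9371511 to 9385694 of BDGP6.54. From low to high coordinates these are Hsp67Bc, Hsp67Bb, Hsp22, Hsp26, Hsp67Ba, Hsp23 and Hsp27. All 10 are protein coding, and 6 of them have gene models without introns in every annotated transcript (Hsp23, Hsp26, Hsp27, Hsp67Ba, Hsp67Bc and Hsp68). Hsp68 (FBgn0001230) lies on 3R at 24055080 to 24057310, l(2)efl (FBgn0011296) on 2R at 23684651 to 23685543 and Hsf (FBgn0001222) on 2R at 18130303 to 18134634. Some of the genes share sequence with others. Hsp22 and Hsp67Bb have 1 annotated transcript in common, and all 1900 exonic bases of Hsp22 are also exonic in Hsp67Bb. In the deposited tables the abundance-weighted transcript length of Hsp22 was 968 to 1004 bases, which is that of its single-exon transcript, and that of Hsp67Bb was 448 to 451 bases, so the common transcript of 1900 bases received little of either count. The strand setting of the counting is not given in the sources used here, and asRNA:CR43481 covers 75.9% of the exonic bases of Hsp67Ba on the other strand. Overlap on the other strand was 10.1% for l(2)efl with St3, 3.002% for Hsp27 with CR43483 and 0.583% for Hsp68 with CG6000 and lncRNA:CR44097. RSEM's posterior SD of the Hsp67Ba count, which reflects reads that match several transcripts, was 0 in every library. The counts of Hsp67Ba and asRNA:CR43481 were whole numbers, so the counting divided no reads between them.

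**Figure D1:**
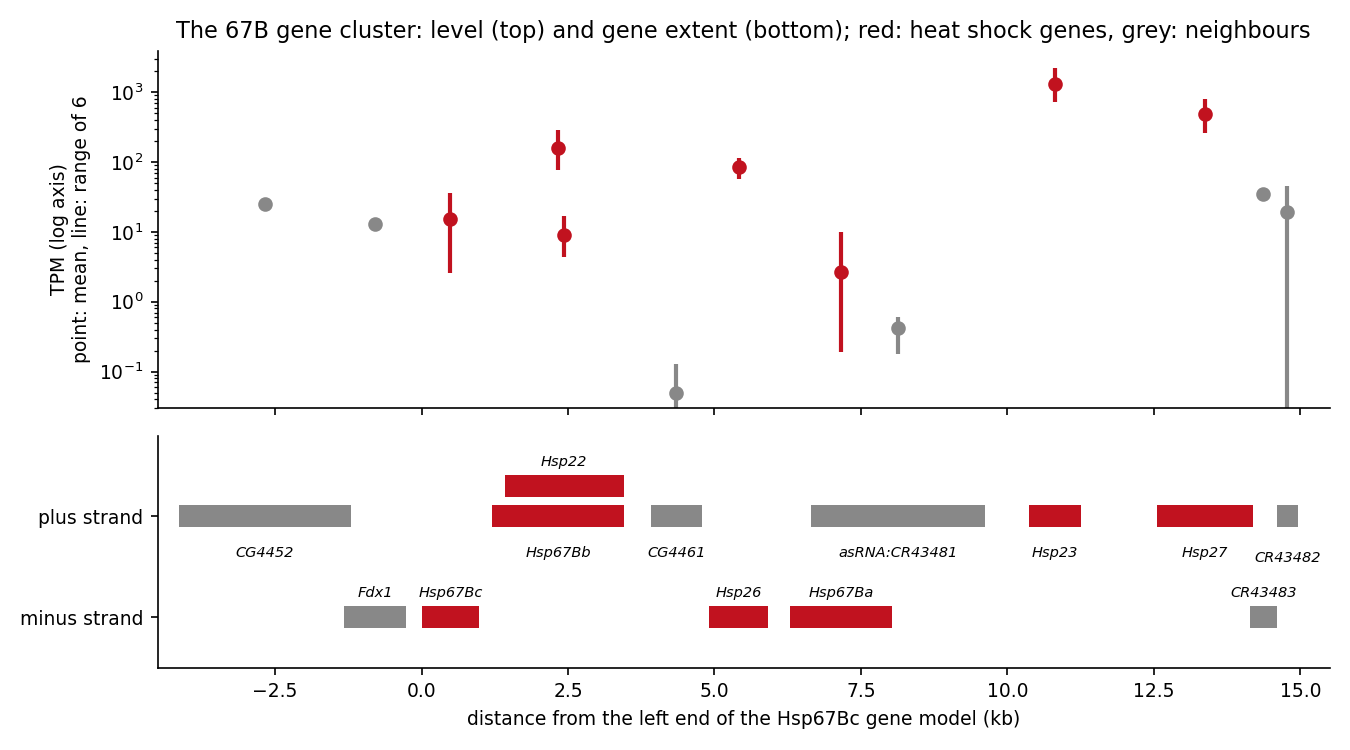
Genes of the 67B locus by distance in kb from the left end of the Hsp67Bc gene model. The upper panel gives the mean (point) and the range over 6 libraries (line) in TPM on a log axis, and the lower panel gives the extent and strand of each gene. Lines that reach the foot of the upper panel have a lowest value of 0. The 7 heat shock genes (red) span mean levels from 2.64 TPM for Hsp67Ba to 1297 TPM for Hsp23, and 2 other genes inside the locus stay at or below 0.61 TPM.

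Levels within the locus differed widely between neighbours. CG4461, an alpha-crystallin gene that lies between Hsp22 and Hsp26, reached at most 0.13 TPM, and asRNA:CR43481 lay between 0.18 and 0.61 TPM. Just outside the locus, the coding genes CG4452, Fdx1 and CG4080 varied 1.16-fold, 1.24-fold and 1.31-fold over the 6 libraries (highest over lowest TPM), and the kinesin gene Klp67A, farther out, varied 2.54-fold. Next to Hsp27, the pseudogene CR43483 varied 1.53-fold and the pseudogene CR43482 ranged from 0 to 45.3 TPM. The heat shock genes of the locus varied from 2.03-fold to 53.1-fold.

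Hsf, the regulator of the family, was expressed at a steady moderate level. Its TPM was 27.8, 29.4 and 33.6 in replicates 1, 2 and 3 of set A and 30.2, 28.4 and 29.7 in those of set B. The mean was 29.9 ± 2.02 TPM (SD, n = 6, as for all means over libraries that follow). The libraries of both sets overlapped, and the coefficient of variation (CV, the SD as a percent of the mean) of 6.76% was below the median of 10.1% over the 7371 genes with a TPM of at least 1 in all 6 libraries, here called detected genes.

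Hsp23 (FBgn0001224, 3L at 9381882 to 9382765), a cytosolic small heat shock gene, had the highest level of the family. Its TPM was 2244, 725 and 784 in replicates 1 to 3 of set A and 965, 1871 and 1192 in those of set B. The libraries of set A replicate 1 and set B replicate 2 were the highest, and the sets overlapped. The mean of 1297 ± 623 TPM stood at the 98.3 percentile of detected genes.

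Hsp27 (FBgn0001226, 3L at 9384063 to 9385694), whose product is found in the nucleus, followed the same libraries. It was at 792, 261 and 289 TPM in set A and at 381, 784 and 378 TPM in set B, in the order of the replicates. Set A replicate 1 and set B replicate 2 were again the highest, each at least 2.06-fold above every other library. The mean was 481 ± 243 TPM. Hsp23 and Hsp27 together made up 78.3% to 90.1% of the summed TPM of the 10 genes, which ranged from 1253 to 3368. The ratio of Hsp23 to Hsp27 TPM ranged from 2.39 to 3.15 (2.73 ± 0.265), a 1.32-fold range, while each of the 2 genes varied by more than 3-fold.

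Hsp67Bb (FBgn0001228, named CG4456 in the annotation, 3L at 9372722 to 9374964) encodes a rhodanese-like protein and no small heat shock protein, although it carries the name of the locus. Its TPM was 161, 129.7 and 78.0 in set A and 125, 287 and 188 in set B. Set B replicate 2 was the highest and set A replicate 3 the lowest. The mean was 161 ± 71.7 TPM, and the range of 3.67-fold was 2.29-fold without set A replicate 3 and 2.41-fold without set B replicate 2.

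Hsp26 (FBgn0001225, 3L at 9376418 to 9377427), another cytosolic small heat shock gene, varied least among the 9 genes other than Hsf. It was at 97.0, 71.7 and 61.8 TPM in set A and at 57.1, 99.2 and 115.9 TPM in set B. Set B replicate 3 was the highest, followed by set B replicate 2 and set A replicate 1, and the mean was 83.8 ± 23.6 TPM with a 2.03-fold range.

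Hsp67Bc (FBgn0001229, 3L at 9371511 to 9372497), which works with the co-chaperone Starvin in flies, was low and varied 14.1-fold. Its TPM was 23.5, 7.12 and 2.58 in set A and 12.5, 36.5 and 8.44 in set B, from 36 to 487 counts. Set B replicate 2 and set A replicate 1 were the highest, as for Hsp23 and Hsp27, and the mean was 15.1 ± 12.6 TPM. Without set A replicate 3, the lowest library, the range was 5.12-fold, and without set B replicate 2, the highest, it was 9.11-fold.

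l(2)efl, the fly counterpart of vertebrate alpha-B-crystallin, fell into separate clusters of libraries. It was at 13.2, 10.5 and 14.6 TPM in set A and at 11.6, 50.3 and 60.3 TPM in set B. Replicates 2 and 3 of set B were high, and set B replicate 1 lay within the range of set A. The mean over all 6 libraries was 26.8 ± 22.4 TPM, with a range of 5.72-fold.

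Hsp22 (FBgn0001223, 3L at 9372931 to 9374964), whose product is found in the mitochondrial matrix, was at 4.38, 7.23 and 6.62 TPM in set A and at 8.16, 10.5 and 16.7 TPM in set B. Every set B library was above every set A library, with set B replicate 3 the highest and set A replicate 1 the lowest. The mean was 8.94 ± 4.31 TPM. RSEM's posterior SD of the Hsp22 count, which reflects reads that match several transcripts, was at most 5.62% of the count. The 3.82-fold range was 2.40-fold without set B replicate 3 and 2.53-fold without set A replicate 1.

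Hsp67Ba (FBgn0001227, 3L at 9377802 to 9379534), an alpha-crystallin gene, was the lowest of the family and reached a TPM of 1 in 3 of 6 libraries. Its TPM was 1.1, 0.32 and 0.19 in set A and 10.1, 3.6 and 0.52 in set B, from 39, 10 and 5 counts and from 271, 92 and 18 counts. Set B replicate 1 was the highest, 2.80-fold above the next library. RSEM's credibility intervals, whose level is not stated in the tables, were 8.88 to 11.3 TPM in set B replicate 1 and 0.0675 to 0.403 TPM in set A replicate 3. The mean of 2.64 ± 3.86 TPM therefore had an SD above its own size, and the range of 53.1-fold was 18.9-fold without set B replicate 1, where the mean was 1.15 TPM, and 31.5-fold without set A replicate 3.

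Hsp68, a heat-inducible Hsp70-family gene, was at 4.39, 11.5 and 13.2 TPM in set A and at 11.7, 11.6 and 16.2 TPM in set B, from 206 to 736 counts. Set A replicate 1, where Hsp23 was highest, was the lowest library for Hsp68. The mean was 11.4 ± 3.89 TPM. Its 3.70-fold range was 1.41-fold without set A replicate 1.

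Of the 10 genes, 8 varied by at least 3-fold between these wild-type libraries, beside 5.48% of detected genes, whose median range was 1.305-fold. Hsp67Ba is among the 8 but not among the detected genes. The count rested in part on single libraries: it was 5 without set A replicate 1 (beside 4.21% of detected genes), 6 without set A replicate 2 and 7 or 8 without any other library.

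**Figure D2:**
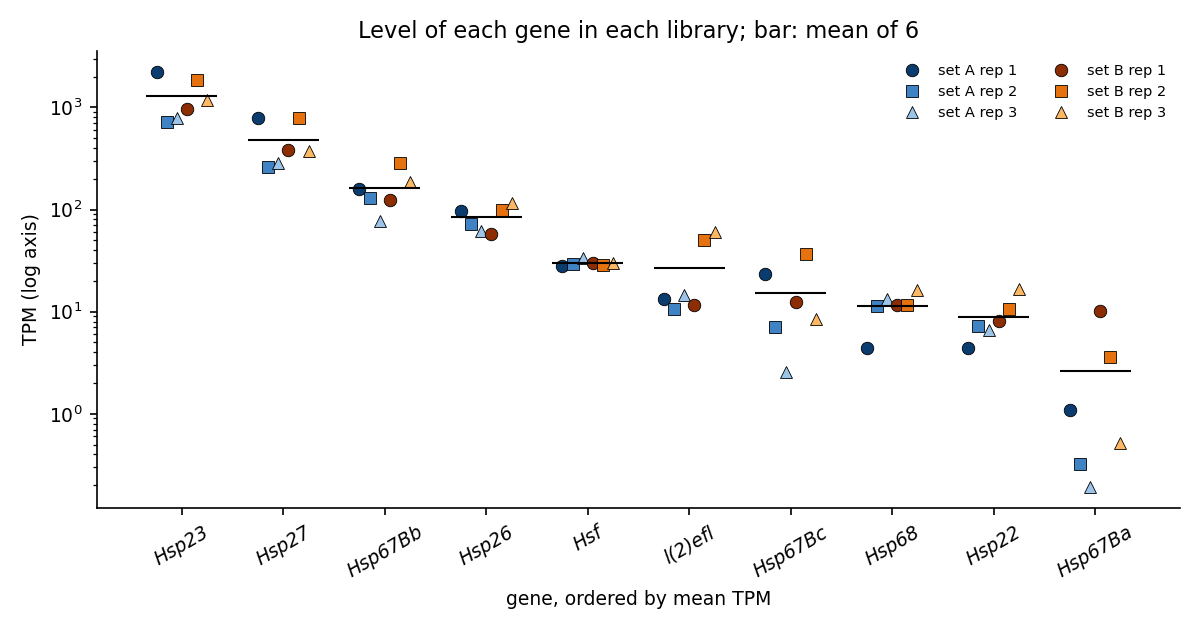
TPM of each gene in each library on a log axis, with genes ordered by mean TPM. Points are libraries, blue for set A and orange or brown for set B, with a marker shape for each replicate number, and the bar is the mean of 6. Hsf lies within 27.8 to 33.6 TPM, while Hsp67Ba spreads from 0.19 to 10.1 TPM.

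In the order of mean TPM, the family ran Hsp23, Hsp27, Hsp67Bb, Hsp26, Hsf, l(2)efl, Hsp67Bc, Hsp68, Hsp22 and Hsp67Ba. Each of the 9 neighbouring pairs was compared within libraries on the log2(TPM + 1) scale with a two-sided exact sign-flip permutation test. The pairs and their order were taken from the same 6 libraries, so the p-values describe these libraries and do not test an order set beforehand. For the upper 4 pairs, from Hsp23 over Hsp27 to Hsp26 over Hsf, the first gene was higher in 6 of 6 libraries. Their mean differences were 1.44 ± 0.139, 1.54 ± 0.504, 0.87 ± 0.408 and 1.41 ± 0.471 (SD, n = 6). The exact permutation p was 0.03125 for each of these, the smallest possible with 6 libraries, and 0.0703 when adjusted over the 9 pairs by Benjamini-Hochberg.

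The lower part of the order was not resolved by the spread between libraries. Hsf was above l(2)efl in 4 of 6 libraries (0.51 ± 1.10, exact permutation p = 0.25, adjusted 0.281, n = 6), and l(2)efl was above Hsp67Bc in 4 of 6 (0.82 ± 1.33, with the same p). Hsp67Bc and Hsp68 differed by 0.06 ± 1.57 (exact permutation p = 0.906). Hsp68 was above Hsp22 in 5 of 6 libraries (exact permutation p = 0.0938, adjusted 0.141), and Hsp22 was above Hsp67Ba in 5 of 6 (exact permutation p = 0.0625, adjusted 0.113). With adjustment, 0 of 9 pairs passed 0.05. The smallest possible p of 0.03125 is too high for 1 pair alone to pass after adjustment over 9 pairs, so this count says nothing about any single pair.

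The genes followed different libraries, and markers of neighbouring tissues were compared side by side with them. A 1.5-fold step between libraries, set after the values were seen, was used to describe this. Set A replicate 1 and set B replicate 2 were each at least 1.5-fold above every other library for Hsp23, Hsp27 and Hsp67Bc, and for 159 genes in all, or 2.16% of detected genes. Of 5 matched ring gland genes, 3 were among these. The ring gland is the endocrine organ next to the lymph gland that makes ecdysone, and these markers encode enzymes of its synthesis. Their summed TPM was 2939 in set A replicate 1 and 2775 in set B replicate 2, and between 941 and 1697 in the other libraries. All 5 had their highest levels in those 2 libraries, as did 24.1% of detected genes, and none was at 0.

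The ring gland genes with the highest levels were spok, phtm and sad. The TPM of spok was 967, 358 and 299 in set A and 501, 990.0 and 601 in set B. The ratio of Hsp23 to spok stayed between 1.89 and 2.62 (1.39-fold) and that of Hsp27 to spok between 0.629 and 0.964 (1.53-fold). The ratio to spok varied more for Hsp26, Hsp67Bb and Hsp67Bc, by 2.06-fold, 2.18-fold and 4.28-fold. These genes themselves varied 2.03-fold, 3.67-fold and 14.1-fold, so the ratio of Hsp26 varied as much as its level. No ratio to spok was taken for Hsp22 and Hsp67Ba. The part of ring gland cells in the levels of the genes of the locus was not tested.

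Ecdysone-response genes were examined as the hormonal pathway of this stage. Of 15 listed genes, 11 had a mean TPM of at least 1, and 8 of the 11 had their highest levels in set A replicate 1 and set B replicate 2, as did 24.1% of detected genes. The list summed to 758, 351 and 362 TPM in set A and to 427, 608 and 363 TPM in set B. The highest of the list were br, a transcription factor gene of the early ecdysone response, at 134 ± 56.0 TPM, ImpL2, which encodes a secreted insulin-binding protein, at 85.0 ± 61.2 TPM, and Eip75B, a nuclear receptor gene, at 58.7 ± 12.7 TPM. ImpL2 varied 9.55-fold, from 18.2 TPM in set A replicate 3 to 174 TPM in set A replicate 1.

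l(2)efl and Hsp22 were highest in set B replicates 2 and 3, as were the muscle markers. Hsp26 and Hsp67Bb had the same highest 2 libraries, with set A replicate 1 next for both. Replicates 2 and 3 of set B were each at least 1.5-fold above every other library for l(2)efl, and for 27 detected genes (0.366%), 5 of them among the 8 muscle genes. All 8 muscle genes had their highest levels in those libraries, as did 3.61% of detected genes, and none was at 0. The muscle genes summed to 473, 634 and 582 TPM in set A and to 637, 953 and 1899 TPM in set B. Of these, Tm1 varied least, 1.73-fold, from 144 TPM in set A replicate 2 to 249 TPM in set B replicate 3. Set B replicate 3 was at least 1.5-fold above every other library for Hsp22, and for 33 detected genes (0.448%), 6 of them muscle genes. For the muscle myosin light chain gene Mlc2, named after its values were seen, TPM was 26.7, 50.8 and 41.0 in set A and 51.3, 94.3 and 214.8 in set B. In the other 4 libraries l(2)efl and Mlc2 differed in order, since Mlc2 was lowest in set A replicate 1 and l(2)efl in set A replicate 2. The ratio of l(2)efl to Mlc2 varied 2.57-fold, and that of Hsp22 to Mlc2 varied 2.10-fold. The part of muscle cells in these levels was not tested.

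Hsp67Ba was highest in set B replicate 1, where neural markers were also highest. The 4 neural genes summed to 22.7 TPM in that library and to between 1.42 and 4.31 TPM in the others. The neuronal gene elav was at 13.5 TPM there and at 1.03 to 2.59 TPM elsewhere, and the glial gene repo at 2.63 TPM there and listed at 0 in 3 libraries. Set B replicate 1 was at least 1.5-fold above every other library for 33 of the detected genes and Hsp67Ba is not one of these, since it was below a TPM of 1 in 3 libraries. The part of neural cells in the level of Hsp67Ba was not tested.

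**Figure D3:**
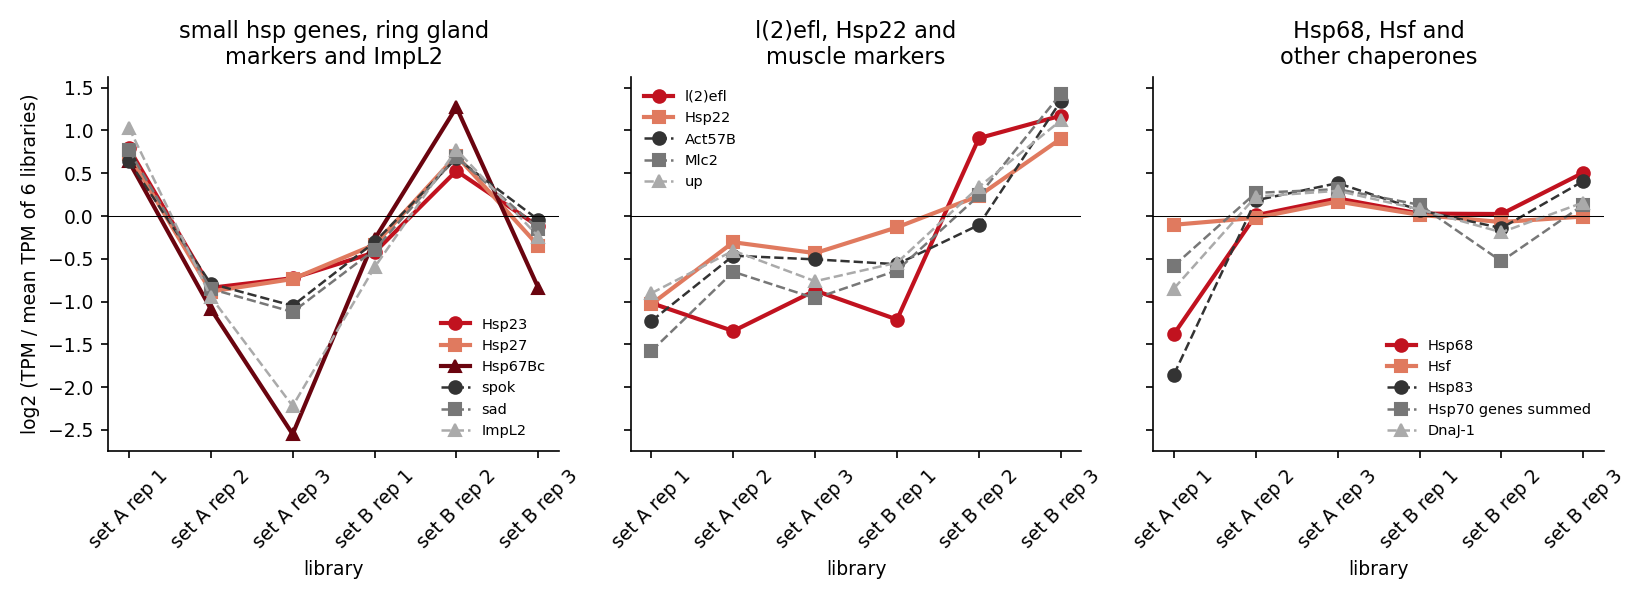
Level of heat shock genes (solid red lines) and comparison genes (dashed grey lines) in each library, as log2 of TPM over the mean TPM of 6 libraries. The libraries have no order, and lines only join points of 1 gene. The left panel shows Hsp23, Hsp27 and Hsp67Bc with spok, sad and ImpL2, all with set A replicate 1 and set B replicate 2 as their highest libraries. The middle panel shows l(2)efl and Hsp22 with Act57B, Mlc2 and up, all highest in set B replicate 3. The right panel shows Hsp68 and Hsf with Hsp83, the summed Hsp70 genes and DnaJ-1, all lowest in set A replicate 1, where Hsf lies close to its mean and the others farther below theirs.

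Hsp68 was set beside the other chaperones. Of 30 matched genes on a chaperone list, 21 had a mean TPM of at least 1, and 14 of these 21 were lowest in set A replicate 1, as were 22.97% of detected genes. The list summed to 6569 TPM in that library and to between 8076 and 8696 TPM in the others. The constitutive Hsp70-family gene Hsc70-4 was the highest, at 3369 ± 280 TPM with a 1.299-fold range. Hsp83, the fly Hsp90 gene, was at 295, 1209 and 1390 TPM in set A and at 1116, 966 and 1414 TPM in set B, so set A replicate 1 was 0.244 times the median of the others. Hsc70-3, the chaperone of the endoplasmic reticulum, was at 834 ± 114 TPM and was lowest in set A replicate 2.

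The ratio of Hsp68 to Hsp83 varied 1.57-fold, while that of Hsp23 to Hsp83 varied 13.5-fold and that of Hsp23 to Hsp68 varied 8.59-fold, from 59.5 to 511. Each of these ratios was highest in set A replicate 1, so the ranges rest on that library. Hsp23 over Hsp83 was 7.61 there and 0.564 to 1.94 elsewhere, and Hsp23 over Hsp68 was 511 there and 59.5 to 161 elsewhere. Set A replicate 1 was at least 1.5-fold below every other library for 84 detected genes (1.14%), among them Hsp68, Hsp22, Hsp83 and the co-chaperone genes DnaJ-1 and stv. DnaJ-1 and stv were named after their values were seen. The same step held for 3 of 8 muscle genes, and 6 of 8 muscle genes were lowest in that library. DnaJ-1 was at 47.9 TPM in that library and at 75.6 to 105.8 TPM elsewhere, and stv was at 5.01 TPM and at 8.01 to 9.94 TPM elsewhere.

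The 6 heat-inducible Hsp70 genes are near-identical copies, so the split of reads between them can be uncertain. The posterior SD was up to 74.5% of the count for Hsp70Bbb, which reached at most 0.4 TPM, and up to 30.4% for Hsp70Ab. For Hsp70Bb, at 202 ± 47.1 TPM, it was at most 0.0339%. The summed TPM of the 6 genes was 143.6, 259 and 267 in set A and 235, 149 and 235 in set B (215 ± 54.6). Hsp70Bb was assigned most of it, and Hsp70Aa was listed at 0. Both of the lowest libraries of this sum, set A replicate 1 and set B replicate 2, were the highest for Hsp23. Among other alpha-crystallin genes, 5 of 6 were matched and CG14207 alone had a mean TPM of at least 1, at 76.4 ± 11.2 TPM with a 1.47-fold range.

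The genes most like the locus were sought by a rule. The mean profile of the 5 genes of the locus with a mean TPM of at least 10 (Hsp23, Hsp26, Hsp27, Hsp67Bb and Hsp67Bc, centred on the log2(TPM + 1) scale) was correlated with 311 other genes that had a mean TPM of at least 10 and an SD of at least 0.5 on that scale. The 5 highest Pearson r over the 6 libraries were 0.993 for GstE14, 0.990 for spok, 0.989 for osy, 0.987 for CG44325 and 0.986 for sad. These values describe 6 libraries in which set A replicate 1 and set B replicate 2 stand above the rest. GstE14, a glutathione S-transferase gene that acts in ecdysteroid synthesis, was at 112.8, 42.2 and 36.4 TPM in set A and at 54.1, 121.9 and 72.4 TPM in set B. Of the 5 genes, osy and sad overlap a gene on the other strand.

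Correlations between pairs of the 10 genes were computed over the 6 libraries on the log2(TPM + 1) scale, with an exact permutation p over 720 pairings and adjustment over 45 pairs. Of 45 pairs, 0 had an adjusted p under 0.05, the smallest adjusted exact permutation p was 0.125, and 6 had an unadjusted p under 0.05. The lowest p that 720 pairings allow is too high for 1 pair alone to pass 0.05 after adjustment over 45 pairs. The count of 0 therefore says nothing about any single pair. Values of Hsp27 and l(2)efl fell into separate clusters of libraries, so no pooled r is given for their 17 pairs. Among the other 28 pairs, 3 had an unadjusted p under 0.05.

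Hsp23 and Hsp67Bc had r = 0.85 (exact permutation p = 0.0375, adjusted 0.281) and rho = 0.83 (p = 0.0583), and r was 0.51 without the 2 libraries farthest from the median of Hsp23 and 0.88 without those farthest from the median of Hsp67Bc. For Hsp67Bb and Hsp67Bc, r was 0.85 (exact permutation p = 0.0333, adjusted 0.281), rho was 0.71 (p = 0.136) and r fell to 0.11 without the 2 farthest libraries, so the relation rests on those. Hsp67Bc and Hsf had r = -0.88 (exact permutation p = 0.0236, adjusted 0.281), rho = -0.71 (p = 0.136) and r = -0.74 without the 2 farthest libraries. Within a set, 3 libraries are too few for a value.

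The sets were compared to see how far the genes differ between experimenters, whose libraries may also differ in day, dissection and sequencing, which cannot be told apart. All 10 genes passed the expression filter. With edgeR's quasi-likelihood test, 0 of 10 had an adjusted p under 0.05, beside 0% of 8491 genes tested. DESeq2 also called 0 of 10, beside 0.259% of genes. At an unadjusted p under 0.05, 3 of 10 were higher in set B, beside 281 of 8491 genes (3.31%), and 0 of 10 were lower. In either direction 353 of the 8491 genes passed that level, so few genes of any kind were lower. The log2 changes of the 10 genes had a median of 0.56, with 9 of 10 above 0. Over all genes tested the median was -0.00, with 4112 of 8491 above 0.

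The 3 genes with an unadjusted p under 0.05 were Hsp22, l(2)efl and Hsp67Ba. Hsp22 had a mean of 6.08 ± 1.501 TPM in set A and 11.8 ± 4.43 TPM in set B (SD, n = 3 each), with a log2 change of 0.96 (SE 0.3497, edgeR adjusted p = 0.9997, unadjusted 0.0337). Its TPM did not overlap between sets. That was so for 1 of 10 genes with set B above set A, beside 4.53% of genes tested, and for 0 of 10 with set A above set B, beside 1.58%. The gene l(2)efl had a mean of 12.8 ± 2.08 TPM in set A and 40.7 ± 25.7 TPM in set B, with a log2 change of 1.67 (SE 0.588, edgeR adjusted p = 0.9997, unadjusted 0.0291) and 2 of 3 set B libraries above all of set A. Hsp67Ba had a mean of 0.537 ± 0.492 TPM in set A and 4.74 ± 4.89 TPM in set B, with a log2 change of 3.08 (SE 1.15, edgeR adjusted p = 0.9997, unadjusted 0.0360) and 2 of 3 set B libraries above all of set A. The DESeq2 adjusted p was 0.617 for Hsp22, 0.3003 for l(2)efl and 0.274 for Hsp67Ba. Without set B replicate 3 the log2 change of Hsp22 was 0.59, and without set B replicate 1 that of Hsp67Ba was 1.90.

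For the other 7 genes the unadjusted edgeR p lay between 0.1201 and 0.854, and their libraries overlapped between sets. Their log2 changes, set B over set A, were 0.09 for Hsp23 (SE 0.494), 0.19 for Hsp27 (SE 0.510), 0.23 for Hsp26 (SE 0.306), 0.70 for Hsp67Bb (SE 0.387), 0.76 for Hsp67Bc (SE 0.883), 0.43 for Hsp68 (SE 0.418) and -0.06 for Hsf (SE 0.0890). The change of Hsp68 was 0.07 without set A replicate 1 and 0.20 without set B replicate 3, and that of Hsp67Bb was 0.35 without set B replicate 2 and 0.45 without set A replicate 3. The standard error of Hsf was the smallest of the family.

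The same comparison for the lists gave no called gene. Of 23 chaperone genes tested, 0 were called and 0 had an unadjusted p under 0.05, with a median log2 change of 0.02. Of 14 ecdysone-response genes, 0 were called, with a median of -0.19. Muscle markers had a median log2 change of 1.13 with 6 of 8 at an unadjusted p under 0.05, beside 353 of 8491 genes tested. The neural markers tested had a median of 2.44, with 2 of 2 at that level. Ring gland markers had a median of 0.26, with 0 of 5 at that level, and none of these markers was called. The set differences of other tissue lists were larger or smaller, with a median of 5.96 for 4 salivary gland genes (4 at an unadjusted p under 0.05), -4.73 for 4 fat body genes (2 at that level) and 0.43 for 3 heart genes (1 at that level), again with 0 called. The part of muscle and neural cells in the set difference of Hsp22, l(2)efl and Hsp67Ba was not tested.

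**Figure D4:**
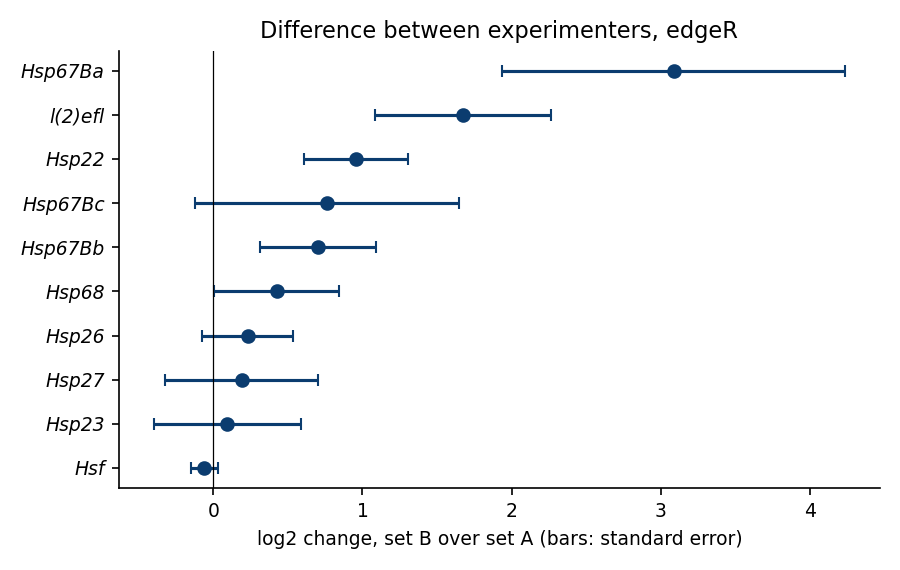
Log2 change of each gene between experimenters, set B over set A, from edgeR, with standard errors as bars. Hsp67Ba, l(2)efl and Hsp22 lie farthest above 0, at 3.08, 1.67 and 0.96, and Hsf lies at -0.06 with the shortest bar. No gene has an adjusted p under 0.05.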

How the data were processed

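RNA from whole lymph glands was sequenced in 6 libraries, purified on columns and prepared with a stranded polyA kit, per the labels' protocols. The submitters' processing notes name CASAVA 1.8.2, Trimmomatic 0.35, STAR 2.7.1a, RSEM 1.2.28 and the build BDGP6. The annotation and strand setting are not given in the sources used here. The deposited tables hold expected counts (estimated reads per gene, not normalized, which need not be whole), TPM (corrected for effective length, same sum in each library) and FPKM, per the file headers. RSEM's posterior SD of each count, its credibility intervals and effective lengths are other values deposited by the authors.

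Levels are the deposited TPM. Positions are from Ensembl release 115 (BDGP6.54, counted from 1), matched by gene ID. Expected counts were rounded and compared between sets with edgeR 4.0.16 (quasi-likelihood test, TMM, filterByExpr) in R 4.3.3, with Benjamini-Hochberg adjustment over all tested genes and a threshold of 0.05. DESeq2 1.42.0 was an alternative, with other scalings, no filter, and each library left out. The edgeR test was checked on simulated data. Order and correlations used exact permutation tests on log2(TPM + 1) in Python 3.11.15 with scipy 1.17.1. Replicates are called biological replicates in the series' design text, but which cultures or larvae they came from is not stated, so p-values measure the spread between these samples.

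All 10 genes are named, with the 3 genes of highest mean TPM of the chaperone, ecdysone, ring gland and stress lists and the 5 genes most like the locus. The rule was not kept for muscle and neural genes. Mlc2 was shown in the figure although Tm1 had a higher mean TPM, and no value is given for nSyb, which had a higher mean TPM than repo. Others are said to be named after their values were seen, apart from these, overlapping and neighbouring genes and the Hsp70 copies. The genes and lists were chosen with earlier results of these data known. Listed genes with no unique match by symbol or synonym were left out. Promoter and protein sequences were not used here.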

Additional observations from a re-analysis of the deposited data

Results flagged for a closer look

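Among 18 values over the 6 libraries (the 10 genes, 4 summed gene lists, the summed Hsp70 genes and 3 single chaperone or crystallin genes), 2 had a library whose gap to its nearest neighbour, as a share of the whole range, was above Dixon's 95% critical value for 6 values. Chance flags about 1 in 20 values if they are normally distributed, and the values are not independent. The rule was applied to TPM and not on a log scale, which shortens the gap of a gene that varies as widely as Hsp67Ba. Hsp67Ba stood apart in set B replicate 1, at 10.1 TPM, while the other libraries had a median of 0.52 TPM, with a gap of 0.656 of the range. The chaperone list stood apart in set A replicate 1, where it summed to 6569 TPM and the other libraries had a median of 8416 TPM, with a gap of 0.709 of the range.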

How the results depend on the processing

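No gene of the 10 was called between sets under any alternative run, and the number of genes called in all was 0 except with DESeq2, where it was 22 (the cause was not tested). Of 100 alternative log2 changes of the 10 genes, 91 kept their direction and 9 reversed, each of the 9 with a library left out and none past the threshold. Leaving out 1 library gave log2 changes of -0.21 to 0.80 for Hsp23, -0.24 to 0.87 for Hsp27, -0.021 to 0.48 for Hsp26, -0.10 to 1.91 for Hsp67Bc and -0.13 to 0.0015 for Hsf. It also gave 0.07 to 0.68 for Hsp68 and 0.35 to 0.96 for Hsp67Bb. All 70 alternative mean TPM values stayed within 1 SD of the mean given, but this could not have come out otherwise. Leaving out 1 library cannot move these means by 1 SD, and FPKM rescaled to one sum per library is TPM by definition. Of 70 fold ranges, 65 stayed within their spread and 5 moved. Leaving out a library that is neither the highest nor the lowest cannot change a fold range, so many of the 65 were fixed in advance. The number of the 10 genes with a range of at least 3-fold, 8 with all libraries, was 5 to 8 with 1 left out, an alternative added after seeing the data. With 5 libraries the exact sign-flip test cannot go below 0.0625, so it says nothing about the order. As deviations from the mean of their own set, same-numbered replicates 1, 2 and 3 correlated at -0.178, -0.302 and 0.375. Such deviations sum to 0 within a set, so these values are not correlations of whole libraries. Only the libraries of replicate 3 were each other's best match, and whether any same-numbered libraries share an origin was not tested. A fit with the replicate number as a block (replicate block) called 0 genes. Heat shock elements in promoters were not run, since no promoter sequence was used. Hsp67Ba, from 5 to 271 counts, is the gene whose precision depth limits most.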

Other observations

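A list of genes for oxidative, unfolded-protein and other stress responses was measured beside the heat shock genes. Of 20 genes, 19 had a mean TPM of at least 1, and 10 of these had their highest levels in set A replicate 1 and set B replicate 2, as did 24.1% of detected genes. The list summed to 10427 TPM in set A replicate 1 and to 9827 TPM in set B replicate 2, and was highest for GstD1, a glutathione S-transferase gene of the oxidative stress response, at 5269 ± 739 TPM with a 1.44-fold range. The transcription factor gene crc, the fly ATF4, was at 759 ± 20.997 TPM with a 1.08-fold range. Of 19 stress genes tested between sets, edgeR called 0, DESeq2 called 0, and 0 had an unadjusted edgeR p under 0.05, with a median log2 change of -0.01.

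The RNAs roX1 and roX2, which act in dosage compensation in males, summed to 86.4, 280 and 430 TPM in replicates 1, 2 and 3 of set A and to 179, 105.7 and 168 TPM in those of set B. Set A replicate 1 and set B replicate 2, where Hsp23 was highest, were the lowest libraries for this sum and for the crystal cell genes, which summed to 9603 and 9632 TPM there and to between 12508 and 17240 TPM elsewhere.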
